A study of Mus musculus with 56 samples.

Results

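Gastrocnemius muscle of 14 male control mice was compared after 10 weeks with a wheel, 7 mice whose wheel turned freely (MCE) and 7 whose wheel was locked (MC). These 14 mice were taken by their group codes from 56 mice in 8 groups of 7, which combined sex, genotype and wheel. All 14 were C57Bl/6 males fed chow 5015 and were HuR fl/fl littermates, in which Elavl1, the gene of the RNA-binding protein HuR, is floxed but no Cre recombinase is present. In the lines labelled HuR skeletal Muscle Knockout, Cre under the Mlc1f promoter of skeletal muscle deletes Elavl1. The labels give wheel access between 10 and 20 weeks of age and, in another field, an age of 5 months. The distance each mouse ran, its housing during wheel access and the hour at which its muscle was taken are not given in the sources used here. The comparison asks which transcripts of this mixed limb muscle differed between male control mice with and without voluntary running.

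Gastrocnemius is built mostly of fast fibres, which contract strongly and draw on glycogen and phosphocreatine, with a smaller share of oxidative fibres that hold more mitochondria, myoglobin and capillaries. Endurance running is known to move fast fibres from the myosin heavy chain IIb form towards the IIx and IIa forms, and to raise mitochondrial enzymes, fat oxidation, glucose transport and capillary supply. In rodents the running itself takes place mainly in the dark phase, and it is known to act on the clock genes of muscle.

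Of 14321 genes tested, 464 passed the test at an adjusted p of 0.05 or less (3.24%), and they split into 213 that rose with running (1.49%) and 251 that fell (1.75%). The changes were small. Their median absolute log2 fold change was 0.42, and only 47 rises and 54 falls reached 1.5-fold, while the median over all genes tested was 0.02. Of all genes tested 53.2% lay above 0, which is the share to set beside the counts above 0 given for lists below. For 94 of the 464 genes the 7 running mice did not overlap with the 7 locked mice, against 143 genes (0.999%) among all tested. An unadjusted p under 0.05 was found for 2405 genes (16.8%). When fold changes of 1.5 and 2 were put into simulated counts of this design, 75 of 100 and 97 of 100 such genes were recovered, with 7 false calls among 179. Genes with few counts were not changed there, and no other shift between the wheel groups was put in. The simulation thus gives no rate for smaller changes, for genes with few counts or for groups whose libraries differ in composition. Protein-coding genes made up 98.1% of the rises and 90.8% of the falls, against 90.0% of the genes tested.

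**Figure D1:**
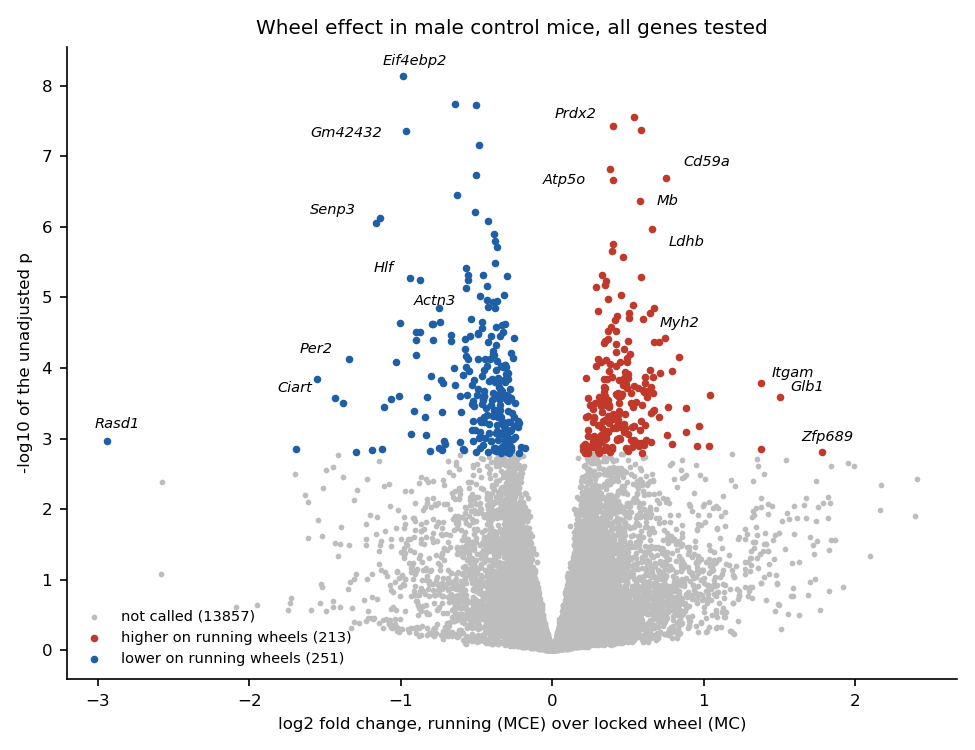
Each point is a gene, placed by its log2 fold change of running over locked wheels (horizontal) and the -log10 of its unadjusted p (vertical), with 213 genes that rose in red, 251 that fell in blue and the others in grey. Most coloured points lie within 1 log2 unit of 0, the lowest p belongs to Eif4ebp2, and Rasd1 stands alone at a log2 fold change of -2.94.

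Several measures of the libraries moved with the wheel. In units of 1000000 counts, the library totals lay between 6.80 and 17.5 (median 10.4) with locked and between 12.8 and 21.63 (median 14.9) with running wheels. Gm42418, a noncoding gene that overlaps ribosomal RNA, held 9.41% to 11.4% of the counts in locked mice and 6.51% to 9.78% in running mice, and mitochondrial mRNAs held 15.6% to 17.04% and 17.2% to 21.2%. Of 11 leukocyte markers, 10 lay above 0 in log2 fold change (median 0.58, with Ptprc, the CD45 of all leukocytes, at 0.23 ± 0.30), their summed level ranging from 55.2 to 100.4 normalized counts per 1000000 (CPM) in locked and from 65.7 to 155.5 in running mice, although of the 11 only Itgam passed the test (2 of the 11 by the edgeR quasi-likelihood test). With the counts thinned to the lowest total of the series 365 genes passed, with the mean of the leukocyte markers as a covariate 75 passed, and with the Gm42418 share as a covariate 38 passed. Both covariates differed between the wheel groups, so that their part in the result cannot be told apart from that of the wheel. Single mice also mattered: without running mouse 10 only 194 genes passed, without locked mouse 20 only 217, and without running mouse 5 as many as 618. Running mouse 5 had a Gm42418 share of 9.04% and a leukocyte sum of 65.7 CPM, where the locked mice ranged from 9.41% to 11.4% and from 55.2 to 100.4 CPM.

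**Figure D2:**
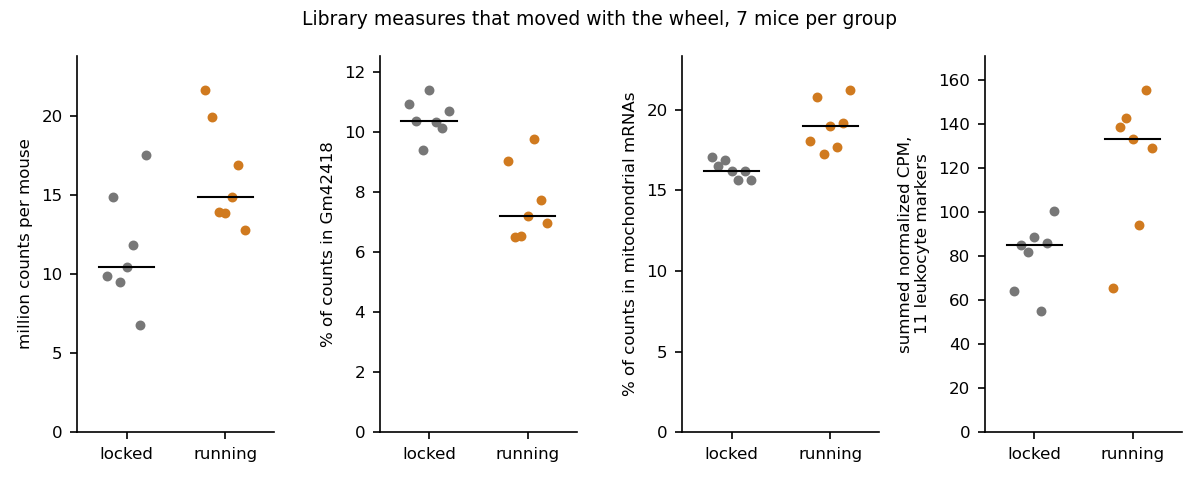
Each point is a mouse and each bar a group median, 7 mice per wheel, for total counts in units of 1000000, the percent of counts in Gm42418, the percent in mitochondrial mRNAs and the summed normalized CPM of 11 leukocyte markers. The mitochondrial share did not overlap between the groups (15.6% to 17.04% against 17.2% to 21.2%), whereas the other panels overlap.

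Markers of the muscle fibre were abundant in both groups. The 9 muscle fibre markers summed to between 120269 and 145974 CPM (median 133471) in locked mice and between 107246 and 132764 (median 121084) in running mice. Of the 9, 1 lay above 0 in log2 fold change (list median -0.13), and 5 had an unadjusted p under 0.05. By limma 1 rose and 1 fell. Skeletal actin (Acta1) differed by -0.18 ± 0.06. Elavl1, floxed but not deleted here, lay from 41.98 to 61.9 (median 53.97) in locked-wheel mice and from 27.8 to 60.9 (median 54.4) in running-wheel mice, and the difference did not pass the test (-0.22 ± 0.12 on the log2 scale, adjusted p = 0.336). Expression values below are normalized CPM per mouse, and each difference is the log2 fold change of running over locked wheels, 7 mice against 7. It is given with its standard error (SE), which rests on the spread within all 8 groups of 56 mice.

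Of the genes for oxygen, lactate and phosphate shuttles, 3 of 15 rose and 1 fell, against 1.49% and 1.75% of all genes, and the edgeR quasi-likelihood test gave the same counts. Myoglobin (Mb), which stores and carries oxygen inside the fibre, measured from 1758 to 2134 (median 1948) in locked-wheel mice and from 1999.6 to 3651 (median 3008) in running-wheel mice. All running mice but 1 lay above every locked mouse, the exception being running mouse 13, and the rise was 0.58 ± 0.10 (adjusted p = 0.000434). Ckmt2, the mitochondrial creatine kinase, rose by 0.48 ± 0.12 with no overlap between the groups (549 to 669, median 626, with locked and 703 to 1022, median 826, with running wheels; adjusted p = 0.0117). Slc25a4, which exchanges ADP for ATP across the inner mitochondrial membrane, rose by 0.22 ± 0.05 (adjusted p = 0.0129). Ckm, the cytosolic muscle creatine kinase, fell instead, by 0.37 on the log2 scale (SE 0.08, adjusted p = 0.00543), at 12593 to 15439.8, median 13160, with locked and 7732 to 15134, median 10424, with running wheels. One running mouse, mouse 5, stayed at 15134 CPM, within the locked range. The lactate transporter Slc16a1 differed by 0.34 ± 0.12 and did not pass (adjusted p = 0.0859).

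Fatty acid oxidation genes that passed all rose. Of 28 genes listed, 27 were tested, and 6 rose and none fell, against 1.49% and 1.75% of all genes. With a median of 0.19, 23 lay above 0. By the edgeR quasi-likelihood test the counts were 6 and 0, and 13 of the 27 had an unadjusted p under 0.05. Fabp3, which binds fatty acids in the cytosol, rose by 0.54 ± 0.13 (adjusted p = 0.0147; 353 to 485, median 431, with locked and 356 to 765, median 677, with running wheels). Acadl and Hadhb, which carry out steps of the mitochondrial β-oxidation spiral, rose by 0.43 ± 0.09 (adjusted p = 0.00463) and 0.42 ± 0.09 (adjusted p = 0.00596), and for Hadhb the groups did not overlap (87.7 to 110.1, median 97.4, with locked and 123 to 153, median 133, with running wheels). Eci1, which handles unsaturated chains, rose by 0.29 ± 0.07 (adjusted p = 0.0106). Acaa2 and Hadh, named after their values were seen, were the remaining members that passed (0.44 ± 0.11 and 0.31 ± 0.09). The fatty acid translocase Cd36 differed by 0.27 ± 0.11 and did not pass (adjusted p = 0.155), and Cpt1b was not analysed here. A pair of genes of fatty acid handling outside the list, picked after their values were seen for their low p, were higher in every running mouse than in any locked mouse. Acot13, a thioesterase, rose by 0.54 ± 0.08 (adjusted p = 8.82e-05; 154 to 194, median 172, with locked and 218 to 305, median 242, with running wheels), and Phyh, which starts the α-oxidation of branched chains, rose by 0.59 ± 0.09 (adjusted p = 8.82e-05; 62.3 to 85.5, median 73.5, with locked and 95.96 to 127, median 108, with running wheels).

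Pyruvate entry into the mitochondria showed 2 rises and no fall among 12 genes, against 1.49% and 1.75% of all genes, with a median of 0.22. Dlat and Pdhb, subunits of the pyruvate dehydrogenase complex, rose by 0.39 ± 0.07 (adjusted p = 0.00130) and 0.37 ± 0.08 (adjusted p = 0.00343). The groups did not overlap for either gene. Dlat measured 71.96 to 91.5, median 84.4, with locked and 97.2 to 120.2, median 114, with running wheels, and Pdhb measured 145 to 177, median 162, with locked and 179 to 228, median 203, with running wheels. Pdha1, which encodes another subunit of the same complex, differed by 0.20 ± 0.08 and did not pass, and Pdk4, the kinase that switches the complex off in fasting, differed by -0.25 ± 0.49 with a wide spread among running mice (56.1 to 102, median 81.5, with locked and 30.5 to 150.3, median 57.6, with running wheels). In the citrate cycle 12 of 13 genes lay above 0 but by little (median 0.09). Idh2, the NADP-dependent isocitrate dehydrogenase, was the 1 member to pass (0.43 ± 0.12, adjusted p = 0.0396), and did so in 6 of the 14 fits that left out 1 mouse. Citrate synthase (Cs) and isocitrate dehydrogenase subunit Idh3a differed by 0.12 ± 0.09 and 0.05 ± 0.05. The 2-oxoglutarate carrier Slc25a11, which shuttles reducing equivalents, rose by 0.38 ± 0.06 (adjusted p = 0.000244; 102 to 117, median 111, with locked and 129 to 151, median 146, with running wheels), again without overlap.

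Of 77 nuclear genes for subunits of the respiratory chain and ATP synthase, 13 rose and none fell, against 1.49% of all genes that rose. Of the 77, 60 lay above 0, with a median of 0.11. The rises covered 4 of the 5 complexes. Atp5o, a subunit of the ATP synthase stalk, had the lowest p of the list (0.40 ± 0.07, adjusted p = 0.000256) and measured 489 to 522, median 500.2, with locked and 600.1 to 730.5, median 667, with running wheels. The 7 locked mice lay very close together and the 7 running mice were all above them. Sdhb, the iron-sulfur subunit of succinate dehydrogenase, rose by 0.33 ± 0.06 (adjusted p = 0.00227), Uqcrc2 of complex III by 0.29 ± 0.06 (adjusted p = 0.00259), and Atp5j2 of the ATP synthase by 0.30 ± 0.06 (adjusted p = 0.00427). Cox4i1 of complex IV differed by -0.06 ± 0.08 and Ndufs1 of complex I by 0.22 ± 0.07, and neither passed. Without running mouse 10 the list had 5 rises, with thinned counts 8, with the leukocyte covariate 4 and with the Gm42418 covariate 1, the median then being 0.17. Among mRNAs encoded by the mitochondrial genome itself, 8 of 13 were tested and 1 rose, mt-Nd4 (0.31 ± 0.08, adjusted p = 0.0172). mt-Nd1 and mt-Co1 differed by 0.07 ± 0.08 and 0.07 ± 0.07 and did not pass.

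Start sites of the called respiratory chain genes were read for a letter pattern that nuclear receptors of the PPAR and estrogen-related receptor families are known to bind. The half-site AGGTCA on either strand was found within 250 bases before and 50 after the RefSeq start site (GRCm38.p6) of 5 of the 12 genes with a window (41.7%) among the 13 called, and of 15.1% of the 10533 tested genes with a window. In the 64 of 77 listed genes with a window the share was 23.4%, and among all 163 rises with a window it was 14.1%. Of the fatty acid oxidation genes with a window, 6 of 24 held the half-site, but 0 of the 5 called ones did. Other letter patterns and gene lists were scanned as well, and 41.7% was the highest share of any pattern in any set. Whether this share exceeds chance was not tested. The longer element TCAAGGTCA, which contains the half-site, was held by none of the 12 and by 0.313% of tested genes with a window. The window of Sdhb is given because its match stands at -86 from the start site, with the half-site in capitals, at chr4:140961021-140961320 on the plus strand.
Sdhb: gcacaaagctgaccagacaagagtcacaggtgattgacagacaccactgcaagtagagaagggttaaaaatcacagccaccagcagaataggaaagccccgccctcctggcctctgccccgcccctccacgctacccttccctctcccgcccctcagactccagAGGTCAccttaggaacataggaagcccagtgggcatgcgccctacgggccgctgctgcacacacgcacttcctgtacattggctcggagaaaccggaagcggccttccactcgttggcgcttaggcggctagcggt

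Regulators of the mitochondrial program were read beside the 1.49% of all genes that rose and 1.75% that fell. Of 23 PGC-1 coactivators, nuclear receptors and mitochondrial transcription factors, 1 rose and none fell, with a median of 0.02, beside 0.02 over all genes. Esrrg, the estrogen-related receptor γ of oxidative fibres, rose by 0.58 ± 0.17 (adjusted p = 0.0421; 9.20 to 15.3, median 11.8, with locked and 12.2 to 21.1, median 18.2, with running wheels). It passed in 4 of the 14 fits that left out 1 mouse. Ppargc1a, which encodes the coactivator PGC-1α, measured 48.9 to 67.8, median 56.8, with locked and 56.2 to 68.9, median 61.4, with running wheels and differed by 0.08 ± 0.09 (adjusted p = 0.758), and Esrra differed by -0.09 ± 0.11.

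**Figure D3:**
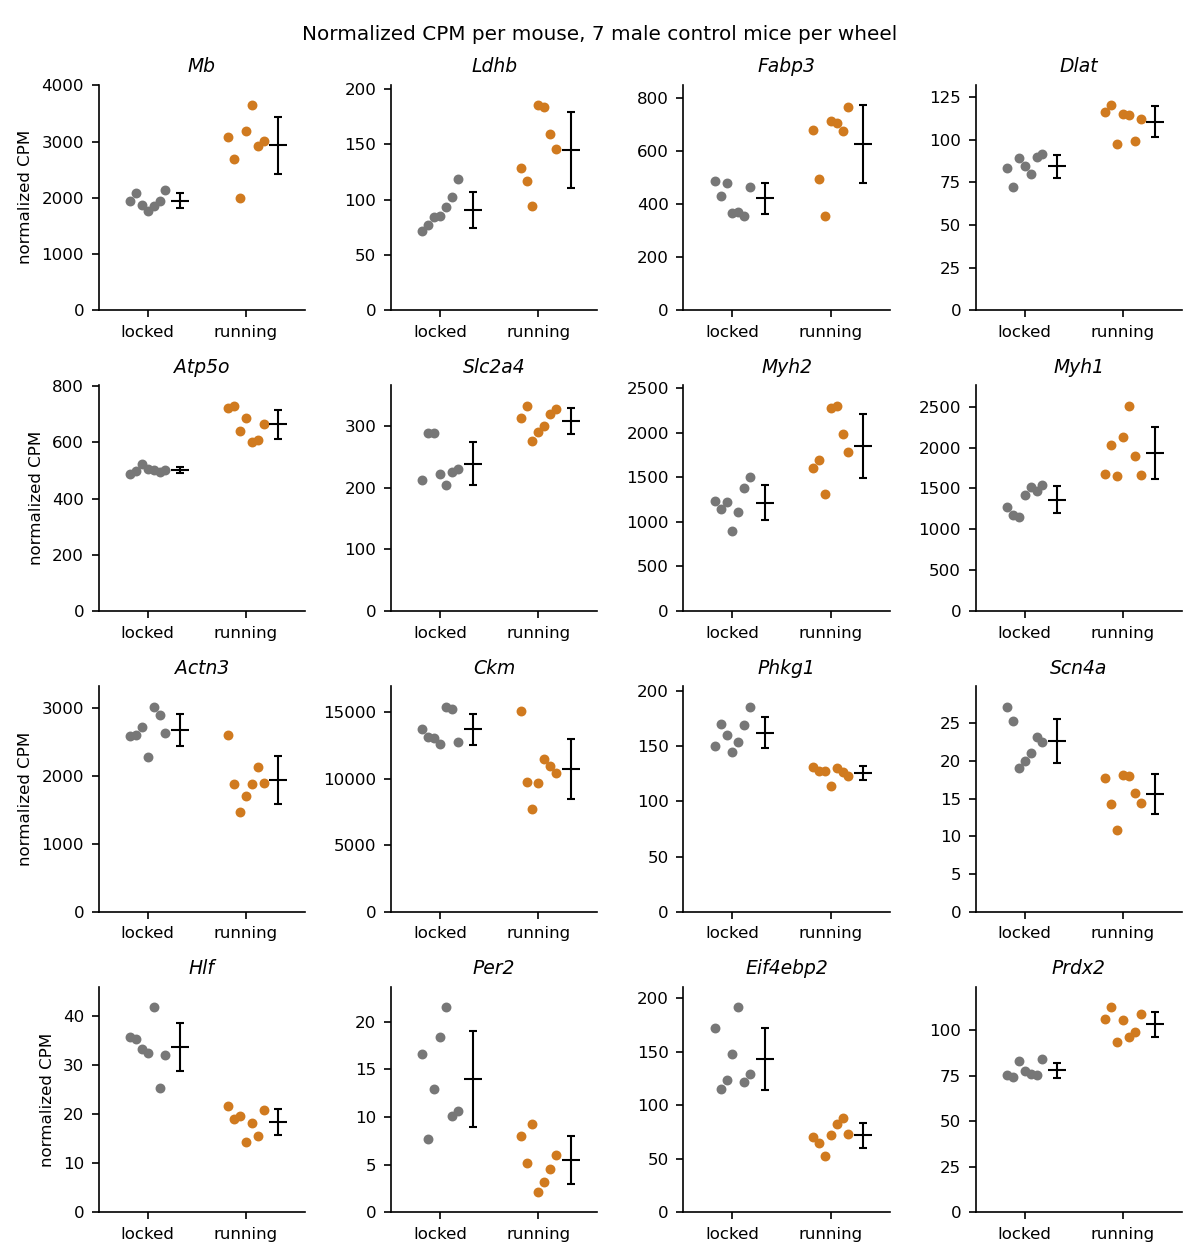
Normalized CPM of 16 genes, 1 point per mouse, with the mean and SD of each group of 7 at its right (axes start at 0). Atp5o, Dlat, Myh1, Prdx2, Phkg1, Scn4a, Hlf and Eif4ebp2 do not overlap between locked and running wheels, while in the other 8 panels the groups overlap.

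Within the contractile apparatus 2 myosins of fast fibres rose and 3 of the other 13 fast-fibre genes fell, against 1.49% and 1.75% of all genes. Myh2, the heavy chain of IIa fibres, measured from 895 to 1506 (median 1229) in locked-wheel mice and from 1315 to 2304 (median 1790) in running-wheel mice and rose by 0.60 ± 0.13 (adjusted p = 0.00490). Myh1, the heavy chain of IIx fibres, rose by 0.50 ± 0.12 (adjusted p = 0.0129), and here every running mouse exceeded every locked mouse (1152 to 1546, median 1415, with locked and 1649 to 2513, median 1892, with running wheels). Myh4, the heavy chain of IIb fibres, differed by -0.24 ± 0.10 and did not pass (adjusted p = 0.163). Actn3, the α-actinin of the Z-disc of fast fibres, fell by 0.48 (SE 0.10, adjusted p = 0.00322), at 2270.5 to 3016, median 2627, with locked and 1462 to 2604, median 1882, with running wheels. Atp2a1, the calcium pump of the fast sarcoplasmic reticulum, and Tpm1, the fast tropomyosin, fell by 0.34 and 0.21 on the log2 scale (adjusted p = 0.0352 and 0.0452). Of the 15 fast-fibre genes 4 lay above 0 (median -0.15). By the edgeR quasi-likelihood test the list had 1 fall, and without single mice between 1 and 4.

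Slow-fibre genes lay above 0 in 10 of 12 cases (median 0.19), but only Casq2, the calsequestrin of slow and cardiac muscle, passed (0.50 ± 0.15, adjusted p = 0.0481), and with thinned counts none did. Casq2 passed in 3 of the 14 fits that left out 1 mouse. Myh7, the slow myosin heavy chain, measured 35.8 to 72.97, median 44.2, with locked and 42.1 to 79.7, median 54.1, with running wheels and differed by 0.20 ± 0.21 (adjusted p = 0.707). Tnnt1, the slow troponin T, differed by 0.05 ± 0.22. The levels overlapped for both.

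Few of the genes that couple nerve, membrane and contraction passed the test. Scn4a, the voltage-gated sodium channel of the fibre membrane, fell by 0.55 (SE 0.12, adjusted p = 0.00629), and its levels did not overlap (19.1 to 27.2, median 22.5, with locked and 10.8 to 18.1, median 15.8, with running wheels). Ryr1, the calcium release channel, and Cacna1s, its voltage sensor, differed by -0.27 ± 0.12 and -0.21 ± 0.09 and did not pass. Of the 25 genes of excitation-contraction coupling, 1 rose (Casq2) and 2 fell (Scn4a and Atp2a1), against 1.49% and 1.75% of all genes. In that list 9 lay above 0, with a median of -0.07. At the neuromuscular junction 1 of 16 genes tested fell, against the same 1.75%, and none rose. That list leaned upwards by little, with 9 above 0 and a median of 0.15. The gene that fell was Rapsn, which clusters the acetylcholine receptor, with a fall of 0.37 (SE 0.09, adjusted p = 0.00962) and no overlap (19.6 to 26.1, median 20.9, with locked and 14.3 to 18.8, median 16.7, with running wheels). The receptor kinase Musk differed by -0.47 ± 0.14 (adjusted p = 0.0549), and Chrne, the adult receptor subunit, by 0.11 ± 0.25.

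Single genes of glucose handling passed the test. Slc2a4, which encodes the insulin-responsive transporter GLUT4, rose by 0.38 ± 0.09 (adjusted p = 0.0102; 205 to 288, median 226, with locked and 276 to 333, median 314, with running wheels). Glycogen synthase (Gys1) rose by 0.47 ± 0.12 (adjusted p = 0.0143; 130.3 to 195, median 141, with locked and 180.4 to 253, median 201, with running wheels). Phkg1, the catalytic subunit of phosphorylase kinase, which switches glycogen breakdown on, fell by 0.36 (SE 0.07, adjusted p = 0.00119), at 145 to 186, median 161, with locked and 114 to 131, median 127, with running wheels, with no overlap. Glycogen phosphorylase (Pygm) differed by -0.30 ± 0.10 and did not pass (adjusted p = 0.0826). Gsk3b and Gsk3a, kinases that inhibit glycogen synthase, fell by 0.31 (SE 0.07, adjusted p = 0.0105) and 0.34 (SE 0.10, adjusted p = 0.0493) on the log2 scale. Running mice lay below all locked mice for Gsk3b only (238 to 314, median 255, with locked and 176 to 237, median 215, with running wheels). With the leukocyte covariate Phkg1 passed, while Slc2a4, Gys1, Gsk3b and Gsk3a did not, and the same held with the Gm42418 covariate. Over all alternative fits the rise ranged from 0.08 to 0.53 for Gys1 and from 0.17 to 0.42 for Slc2a4.

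In glycolysis 1 of 13 genes rose and 1 fell, against 1.49% and 1.75% of all genes, with a median of 0.02. Ldhb, the lactate dehydrogenase subunit of oxidative muscle and heart, rose by 0.66 ± 0.12 (adjusted p = 0.000814), at 71.8 to 119, median 84.8, with locked and 93.9 to 186, median 146, with running wheels. Gapdh fell by 0.48 (SE 0.13, adjusted p = 0.0263), but it shares sequence with many pseudogenes, among which reads may have been split. Hk2, the hexokinase of muscle, differed by 0.02 ± 0.06 and the insulin receptor substrate Irs2 by -0.09 ± 0.12. Beside the same shares of all genes, the counts were 1 rise and 1 fall of 16 for glycogen metabolism. For insulin signalling and glucose uptake they were 1 rise and 2 falls of 22 (medians -0.07 and -0.10).

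The clock genes held the largest falls among the 27 pathway lists. Of 21 genes, 5 fell and none rose, against 1.75% falls over all genes, and the median was -0.19. Ciart, a repressor of the clock, measured from 3.26 to 8.64 (median 5.97) in locked-wheel mice and from 0.300 to 4.17 (median 2.44) in running-wheel mice and fell by 1.43 (SE 0.37, adjusted p = 0.0176). Per2, a core repressor, fell by 1.34 (SE 0.31, adjusted p = 0.00939), at 7.70 to 21.5, median 12.9, with locked and 2.18 to 9.29, median 5.13, with running wheels. Hlf, a transcription factor of the output of the clock, fell by 0.87 (SE 0.17, adjusted p = 0.00232), and its running mice were all below the locked mice (25.3 to 41.8, median 33.2, with locked and 14.4 to 21.58, median 18.97, with running wheels). Csnk1e, a kinase that marks PER proteins for decay, fell by 0.29 (SE 0.07), also without overlap, and Rora, an activator of Arntl that was named after its values were seen, fell by 0.34 (SE 0.09). The activator Arntl (Bmal1) differed by 0.36 ± 0.26 and Dbp, an output factor related to Hlf, by -0.75 ± 0.30, and neither passed (adjusted p = 0.524 and 0.166). Leaving out single mice left 3 to 6 falls, thinned counts 5, the Gm42418 covariate 3 and the leukocyte covariate 1, which was Hlf. Whether all mice were killed at the same hour, and how long after their last run, is not given in the sources used here, and the part of this in the result was not tested.

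Start sites of the clock genes were read for the E-box CACGTG, the element that the CLOCK and BMAL1 pair is known to bind, and which reads the same on both strands. Of the 21 clock genes 17 had a RefSeq window, and of these 5 held it (29.4%: Bhlhe41, Ciart, Cry1, Per1 and Tef), against 11.5% of tested genes with a window and 7.98% of the 188 falls with one. Of the 4 clock genes with a window that fell, only Ciart held it. Its window is shown because it has 3 matches, at -116, -58 and -44 from the start site (capitals), at chr3:95882179-95882478 on the minus strand (GRCm38.p6). The window of Hlf, at chr11:90390868-90391167 on the minus strand, is set beside it with its 1 match to the cyclic AMP response element TGACGTCA at -9, a pattern found in 3.45% of tested genes with a window.
Ciart: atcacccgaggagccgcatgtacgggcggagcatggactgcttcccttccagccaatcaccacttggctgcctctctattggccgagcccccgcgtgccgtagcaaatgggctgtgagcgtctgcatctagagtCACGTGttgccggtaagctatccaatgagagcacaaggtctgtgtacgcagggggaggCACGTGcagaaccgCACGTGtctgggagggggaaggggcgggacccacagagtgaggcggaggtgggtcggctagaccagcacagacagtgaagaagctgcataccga
Hlf: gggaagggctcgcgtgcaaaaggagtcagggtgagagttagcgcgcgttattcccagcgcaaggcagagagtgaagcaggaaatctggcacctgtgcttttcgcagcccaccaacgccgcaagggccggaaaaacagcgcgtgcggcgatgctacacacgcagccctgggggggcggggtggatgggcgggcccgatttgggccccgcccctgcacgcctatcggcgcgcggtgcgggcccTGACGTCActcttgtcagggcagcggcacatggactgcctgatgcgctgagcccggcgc

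The lowest p of all belonged to a gene of translation control. Eif4ebp2, whose protein binds the cap-binding factor eIF4E and holds back initiation, was picked after its values were seen. It measured from 115 to 191 (median 129) in locked-wheel mice and from 52.2 to 87.7 (median 71.95) in running-wheel mice and fell by 0.99 (SE 0.15, adjusted p = 8.82e-05), with no overlap between the groups. Eif4b, a helper of the initiation helicase named on the same ground, fell by 0.48 (SE 0.08, adjusted p = 0.000124; 57.4 to 79.5, median 60.9, with locked and 39.5 to 54.03, median 45.7, with running wheels). So did Cuedc1, by 0.64 (SE 0.10), Snrnp70, a protein of the U1 splicing particle, by 0.51 (SE 0.08), and Wdtc1, by 0.50 (SE 0.08), with adjusted p of 8.82e-05, 8.82e-05 and 0.000256. Of 77 cytosolic ribosomal protein genes 9 rose and 2 fell, against 1.49% and 1.75% of all genes, with 56 above 0 and a median of 0.09. Rps15a, Rps25 and Rps12 rose by 0.41 ± 0.09, 0.39 ± 0.09 and 0.42 ± 0.11, and Rpl31 by 0.30 ± 0.07. Rps6 and the muscle-specific paralog Rpl3l differed by -0.59 ± 0.28 and 0.09 ± 0.05 and did not pass. These genes have many processed copies, so single values are uncertain, and without running mouse 10 the list had 2 rises. The proteasome list had 4 falls and no rise among 31 genes, against the same shares of all genes (median -0.00). Psmb3, Psmd2, Psmd4 and Psmd6 fell by 0.33 (SE 0.07), 0.33 (SE 0.08), 0.32 (SE 0.08) and 0.18 (SE 0.05), while Psmb5, a catalytic subunit, differed by -0.27 ± 0.09 and Psma1 by 0.07 ± 0.09. Without locked mouse 20 the list had 1 fall.

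Some capillary and matrix genes rose. Kdr, the receptor for VEGF-A on endothelium, rose by 0.35 ± 0.11 (adjusted p = 0.0453; 47.99 to 71.5, median 68.4, with locked and 69.8 to 88.6, median 81.3, with running wheels), and Cd34, carried by endothelial and stromal cells, by 0.49 ± 0.12 (adjusted p = 0.0154; 30.9 to 48.4, median 40.5, with locked and 46.4 to 65.5, median 56.5, with running wheels). These were the 2 of 23 capillary and angiogenic genes that passed, with none falling and a median of 0.01, against 1.49% rises and 1.75% falls over all genes. Of the 14 fits that left out 1 mouse, 4 called Kdr and 12 called Cd34. Vegfa measured 76.2 to 107, median 95.7, with locked and 78.5 to 106, median 93.3, with running wheels, with a difference of -0.00 ± 0.10. Among collagens and matrix genes 26 of 29 lay above 0 with the highest median of the 27 pathway lists, 0.35, but only 2 passed. Col4a1, a chain of basement membrane collagen, rose by 0.35 ± 0.08 (adjusted p = 0.00944), and Fbn1, the fibrillin of elastic microfibrils, by 0.63 ± 0.16 (adjusted p = 0.0160). Col1a1 and Col3a1, chains of fibrillar collagen, differed by 0.47 ± 0.21 and 0.44 ± 0.16 and did not pass. With the leukocyte markers as a covariate the median of the matrix genes was 0.08 and no member passed, and without running mouse 5, whose leukocyte sum was the lowest of the running mice, 8 passed. The part of the leukocyte markers in the matrix result was not tested otherwise. In bulk muscle, more cells of a type and more RNA per cell cannot be told apart.

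Markers of several other cell types were read in the same way. Adipocyte markers summed to 318.6 to 669.9 CPM in locked and 343.9 to 613.2 in running mice, and 0 of 10 passed by limma (1 at an unadjusted p under 0.05). Adipoq and Plin1 differed by -0.38 ± 0.40 and -0.69 ± 0.42. Liver markers lay below 0 in all 14 cases with none past the test, and their sum reached 782.9 CPM in locked mouse 19 against at most 174.4 in any running mouse. Alb alone spanned 1.66 to 266, median 18.7, with locked and 2.26 to 53.6, median 11.03, with running wheels. Tendon and cartilage markers summed to 108.8 to 257.95 CPM with locked and 145.3 to 353.8 CPM with running wheels, and erythroid markers to 746.1 to 1945 and 1188 to 2280, with none past the test in either list. All 7 tendon and all 6 erythroid markers lay above 0 (medians 0.48 and 0.43). Their single markers Tnmd and Hbb-bs differed by 0.62 ± 0.40 and 0.36 ± 0.26. Smooth muscle and pericyte markers summed to 487.3 to 588.5 CPM and 465.4 to 575.8 CPM, where Pdgfrb rose by 0.43 ± 0.12 (adjusted p = 0.0387) and Myh11 differed by -0.07 ± 0.13. Brown adipocyte markers summed to 610.3 to 812.9 and 566.8 to 845.8 CPM and brain markers to 292.6 to 521.6 and 296.9 to 384.1 CPM, none of which passed. The mean log2 level of the 6 brain markers had medians of only 0.71 with locked and 1.18 with running wheels. Their sum was thus carried by the most abundant members. Snap25 of neurons spanned 0 to 11.04, median 0.0926, with locked and 0.146 to 7.24, median 0.476, with running wheels. An unadjusted p under 0.05 was found for 1 tendon marker and for no liver, erythroid, brown adipocyte or brain marker, and by the edgeR quasi-likelihood test and DESeq2 none of these lists or the adipocyte list had a called member. Of the pancreas markers Ins2 lay at 0 to 8.59 CPM in running mice and did not pass by limma (1.19 ± 0.95). Its highest value came from running mouse 28, at 108 counts, while the other running mice had 0 to 6. Ins2 and Ins1 each passed in 1 of the 27 alternative fits that gave them a result.

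Counting only called genes that averaged 10 counts or more per mouse, the largest rises mostly stood at low levels. Zfp689, a zinc finger gene, rose by 1.78 ± 0.54 (adjusted p = 0.0485) at 0 to 1.11, median 0.444, with locked and 0.450 to 1.81, median 1.17, with running wheels. Glb1, the lysosomal β-galactosidase, rose by 1.504 ± 0.39 with every running mouse above every locked one (0.221 to 0.814, median 0.622, with locked and 1.32 to 2.17, median 1.77, with running wheels). Itgam, the CD11b integrin of myeloid cells, rose by 1.38 ± 0.34 (adjusted p = 0.0138; 0.774 to 2.92, median 1.40, with locked and 2.45 to 5.49, median 3.59, with running wheels), and the interferon-induced GTPases Gbp3 and Gbp9 by 1.04 ± 0.27 and 1.03 ± 0.30. Pi16, a marker of connective tissue fibroblasts, rose by 0.88 ± 0.23 with no overlap (4.01 to 10.4, median 7.26, with locked and 11.5 to 14.5, median 13.1, with running wheels). Aldh1a2, which makes retinoic acid, the receptor kinase Ephb3 and Lrrc27 rose by 0.88 ± 0.25, 1.38 ± 0.41 and 0.96 ± 0.28, as did the processed pseudogene Gm8292 (0.97 ± 0.27). Cd59a, which shields cells from complement, rose by 0.75 ± 0.13 (adjusted p = 0.000256; 37.9 to 74.8, median 53.9, with locked and 76.3 to 94.9, median 88.4, with running wheels), without overlap.

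Among the largest falls, beside Ciart and Per2, were Senp3, a SUMO protease of the nucleolus, which fell by 1.14 (SE 0.20, adjusted p = 0.000666; 10.7 to 16.7, median 12.04, with locked and 3.48 to 8.78, median 5.45, with running wheels), Adam9, a membrane metalloprotease, by 1.12 (SE 0.33), and Rpa3, a subunit of the single-strand DNA binding protein, by 1.19 (SE 0.36). Senp3 and Rpa3 did not overlap between the groups. Noncoding entries were the U8 small nucleolar RNA Snord118, which fell by 1.11 (SE 0.29), the mitochondrial tRNA mt-Tc, by 1.38 (SE 0.36), the annotated miRNA gene Gm23935, by 1.69 (SE 0.50), and Gm42790 and Gm37014, by 1.16 (SE 0.21) and 1.30 (SE 0.39). Under the Gm42418 covariate Gm23935 turned to 0.10. Rasd1, a Ras-related gene induced by glucocorticoids and named after its values were seen, had the lowest log2 fold change, -2.94 ± 0.85, on 0 to 24 counts per mouse, so that the size of its fall is uncertain.

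A further 8 groups that acute exercise, stress or muscle growth are known to move are given beside the 3.24% of all genes that passed. The share of all genes at an unadjusted p under 0.05 was 16.8%. No immediate early gene passed among 23 tested (0 at an unadjusted p under 0.05, and 0 by the edgeR quasi-likelihood test), with Fos at 0.47 ± 0.41 and Egr1 at 0.23 ± 0.32. Of 19 glucocorticoid-responsive genes (7 at an unadjusted p under 0.05) Cebpb alone passed, falling by 0.53 (SE 0.15, adjusted p = 0.0326), while Fkbp5 and Tsc22d3 differed by 0.27 ± 0.21 and -0.13 ± 0.09. None of 25 genes of muscle mass and atrophy control passed (5 at an unadjusted p under 0.05, and 1 by the edgeR quasi-likelihood test), with the ubiquitin ligase Trim63 at 0.01 ± 0.14 and myostatin (Mstn) at -0.25 ± 0.13. Among 18 myogenic and satellite cell genes (3 at an unadjusted p under 0.05) Mef2a fell by 0.23 (SE 0.06, adjusted p = 0.0271), and Pax7 and Myog differed by 0.05 ± 0.23 and -0.50 ± 0.27. Of 21 chaperones 1 rose, Hsp90aa1 (0.48 ± 0.14, adjusted p = 0.0458), which passed in 4 of the 14 fits that left out 1 mouse. In that list 17 lay above 0 (median 0.16), and 8 had an unadjusted p under 0.05. Hspa1b differed by 0.87 ± 0.45 with running mouse 27 alone at 67.1 CPM, with Cryab at 0.21 ± 0.19. None of 11 polyamine genes passed (0 at an unadjusted p under 0.05 and 0 by the edgeR quasi-likelihood test), with Odc1 at 0.05 ± 0.18 and Amd1 at -0.08 ± 0.20. None of 13 myokine genes passed (4 at an unadjusted p under 0.05 and 1 by the edgeR quasi-likelihood test), with Il15 at 0.58 ± 0.19 and Fndc5 at 0.29 ± 0.12. Of 24 antioxidant genes 1 rose, with 8 at an unadjusted p under 0.05. The gene that rose was Prdx2, a peroxiredoxin, by 0.40 ± 0.06 (adjusted p = 8.82e-05), with no overlap (74.2 to 84.01, median 75.97, with locked and 93.2 to 112, median 105, with running wheels), while Sod2 and Cat differed by 0.18 ± 0.06 and 0.02 ± 0.14.

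**Figure D4:**
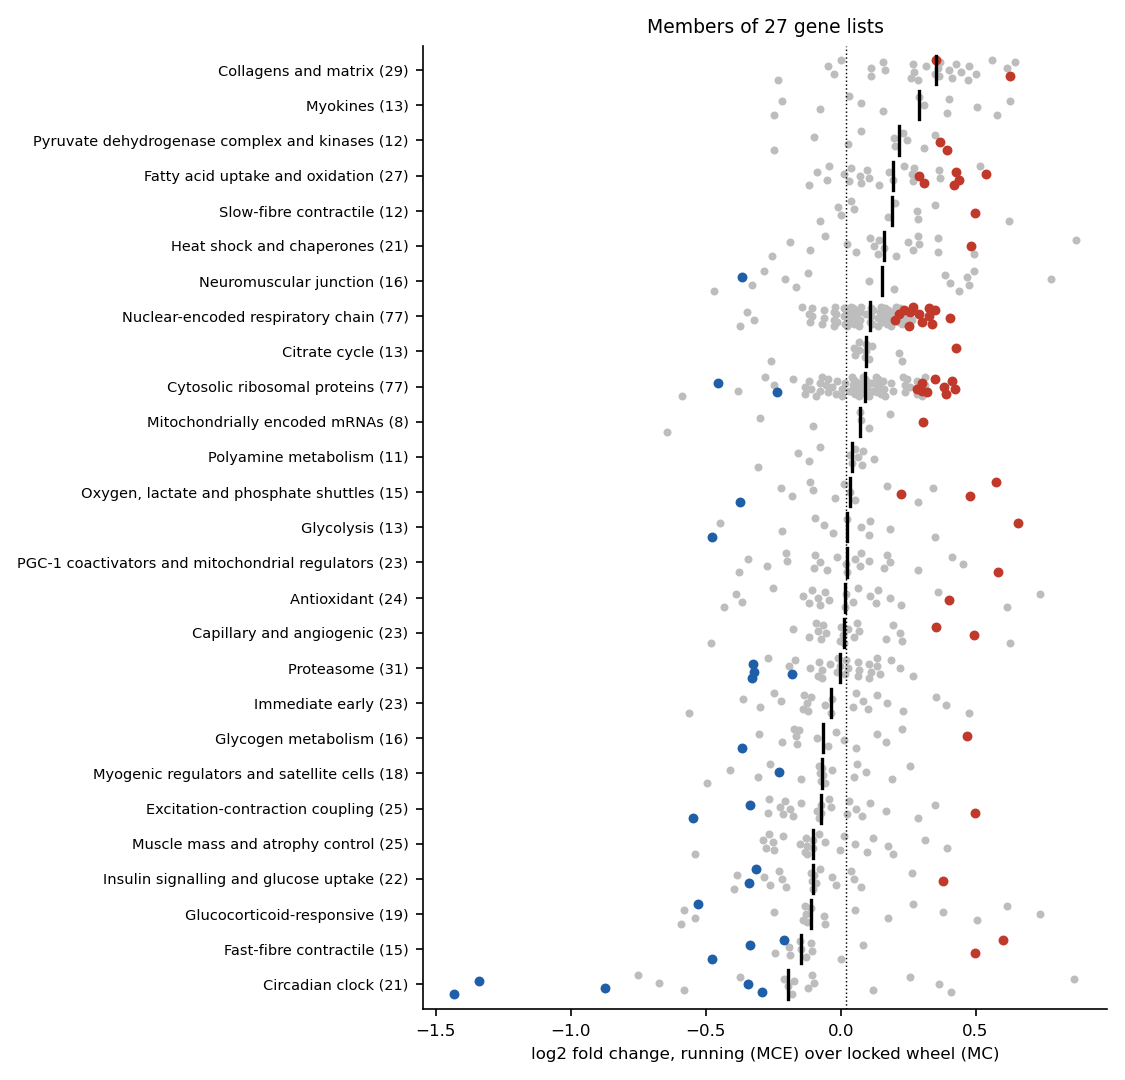
Each row is a gene list with its number of tested members in brackets, each point a member's log2 fold change of running over locked wheels (red rose, blue fell, grey did not pass), the bar the list's median and the dotted line the median of all genes, 0.02. The matrix list has the highest median (0.35) and the clock list the lowest (-0.19), and the 13 red points of the respiratory chain stand on the right edge of a narrow cloud.

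The base composition of the called genes was read from their transcripts. The median GC content of the longest transcript was 49.7% for rises, 51.4% for falls and 49.3% for all genes tested. With the genes in 5 equal bins by GC content, falls numbered 79 in the highest bin, above 55.2%, and 33 in the lowest, whereas rises numbered 30 and 43. Over all genes the rank correlation between GC content and the log2 fold change was -0.03, a description across genes, which are not independent.

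In female control mice, compared in the same way with 7 running (FCE) and 7 locked (FC) mice, 184 of the 464 genes called in males had the same sign (39.7%), against 46.6% of all genes. The share was 49.3% for the male rises and 31.5% for the male falls. The test of the difference between the sexes called 1251 of all 14321 genes (8.74%, and 22.7% at an unadjusted p under 0.05). Among the 464 it called 250, a share that their selection by the male effect, which is a term of this difference, raises by itself. This holds for the single genes below as well. Phkg1 fell in males and rose in females (-0.36 and 0.37, difference -0.73 ± 0.10, adjusted p = 1.77e-06), and Gsk3b did likewise (-0.31 and 0.33, difference -0.64 ± 0.11, adjusted p = 9.53e-05). Actn3 and Scn4a fell in males and differed by 0.12 and 0.24 in females (differences -0.60 ± 0.14 and -0.79 ± 0.18, adjusted p = 0.00343 and 0.00304). For Atp5o, Sdhb, Uqcrc2 and Pdhb the female values were 0.09, -0.06, -0.01 and -0.06, and each differed from the male value (adjusted p = 0.0310, 0.00399, 0.0143 and 0.00777). Col3a1 and Fbn1 fell in females (-0.81 and -0.53), and the differences from males were 1.26 ± 0.23 and 1.16 ± 0.22. Eif4ebp2 differed by 0.01 in females (difference -0.99 ± 0.21, adjusted p = 0.00140).

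Other genes rose in both sexes. Myh2 rose in both (0.60 and 0.63, difference -0.03 ± 0.18), as did Myh1 (0.50 and 0.53, difference -0.04 ± 0.17), Gys1 (0.47 and 0.48, difference -0.02 ± 0.17), Eci1 (0.29 and 0.27, difference 0.02 ± 0.10), Ldhb (0.66 and 0.45, difference 0.21 ± 0.17) and Mb (0.58 and 0.31, difference 0.26 ± 0.14). The differences of these 6 genes did not pass, which does not show that they were equal.

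Other cell types and library measures also moved between the female groups. The leukocyte markers had a median of -0.69 in females against 0.58 in males, and the adipocyte markers -1.08 against -0.30. With the leukocyte covariate 87 genes differed between the sexes, with the adipocyte covariate 764 and with the Gm42418 covariate 658. A further sign was found in 412 unverified or sense-intronic noncoding genes that lie wholly inside a protein-coding gene on its strand, a class defined after its values were seen. In females 94 of the 412 rose (22.8%, against 4.5% of all genes) and none fell (against 4.23%), with a median of 0.90, whereas in males none rose and 8 fell (1.94%, against 1.75%), with a median of -0.15. Gm42432 inside Map4 fell by 0.96 in males and rose by 1.18 in females (difference -2.14 ± 0.23, adjusted p = 1.35e-08). Gm43063 inside Ampd1 fell by 0.83 and rose by 1.56, and Gm43185 inside Nexn differed by -0.52 and rose by 1.80. Luc7l2, a splicing factor gene outside this class, was among the 5 lowest p of the difference as well (-0.20 and 0.58, difference -0.78 ± 0.11). The share of counts in this class was 0.0482% to 0.0721% with locked and 0.0441% to 0.0626% with running wheels in males, and 0.0340% to 0.0494% and 0.0649% to 0.0791% in females. Its part in the difference between the sexes was not tested.

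The male mice labelled HuR skeletal Muscle Knockout had few called genes of their own, 6 between 7 running (MHE) and 7 locked (MH) mice (0.0419%), but their values leaned the same way. Of the 464 genes, 358 had the same sign (77.2%), against 57.4% of all genes, with medians of 0.12 for the rises and -0.11 for the falls. The difference of the 2 wheel effects passed for 5 genes (0.0349%), with 1275 at an unadjusted p under 0.05 (8.9%). They were Senp3, which fell in control males and differed by 0.47 in the other line (difference -1.61 ± 0.29, adjusted p = 0.0108), Cd59a (0.90 ± 0.18, adjusted p = 0.0273), Slc25a11 (0.44 ± 0.09, adjusted p = 0.0319), Inpp5k, a phosphoinositide phosphatase (-0.60 ± 0.13, adjusted p = 0.0414), and the insulin gene Ins1. Ins1 rested on the knockout line: it was at 50 to 106 counts in the 7 running and 0 to 1 in the 7 locked knockout males (6.31 on the log2 scale), and at 0 to 3 counts in 13 of the 14 control males, with 86 in running mouse 28 (0.57; difference -5.74 ± 1.11, adjusted p = 0.0242). Both pancreas markers tested, Ins1 and Ins2, passed in the knockout line. By the edgeR quasi-likelihood test and in a fit of the 28 male mice no gene differed between these lines, with 1495 and 1325 genes at an unadjusted p under 0.05. Per2 and Ciart were at -1.06 and -1.03 in that line, Mb at 0.37, Myh2 at 0.28 and Hlf at -0.61, none of which passed there.

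**Figure D5:**
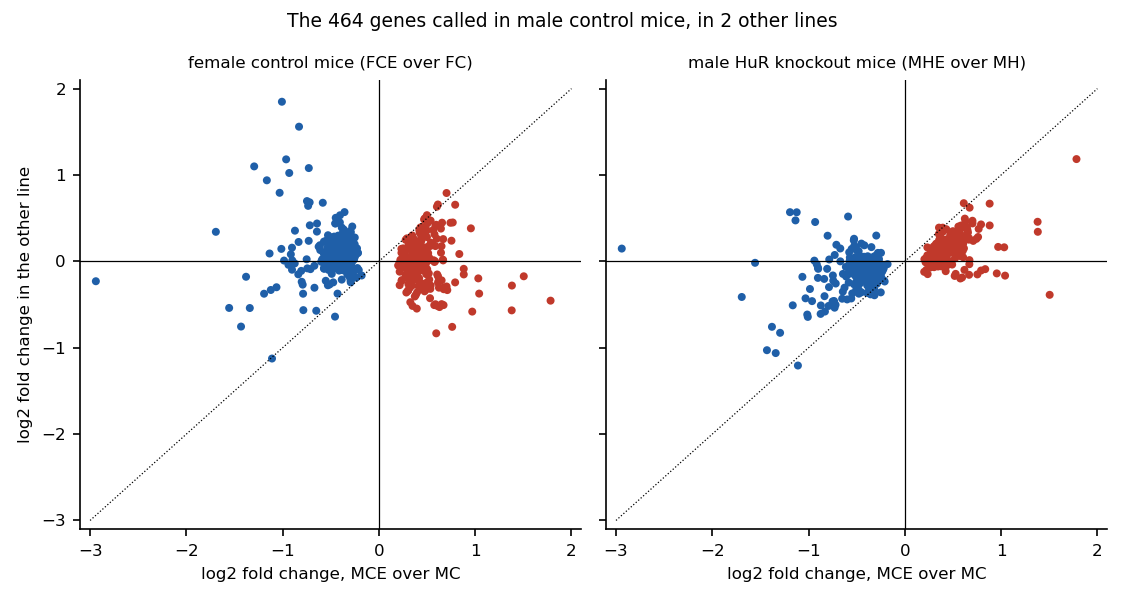
The 464 genes called in male control mice, by their log2 fold change there (horizontal) and in female control mice (left) or male HuR knockout mice (right), with rises in red, falls in blue and equal values on the dotted line. In the left panel 39.7% of the points share the sign of the male controls, in the right panel 77.2%, mostly closer to 0 than the dotted line.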

How the data were processed

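RNA of the gastrocnemius of 56 mice was sequenced, 7 mice in each of 8 groups assigned by the submitters' labels. The authors deposited raw read counts for 15539 genes in 56 columns, and every column was mapped to 1 mouse by its name. The kit is given as a 3′ QuantSeq kit with 50-base forward reads in the labels and as a stranded total RNA kit in the study's methods, and this was not resolved. Whether the counting used strand is not given in the sources used here, so overlapping and antisense genes are uncertain. The submitters' processing notes name R 4.0.3 and edgeR 3.38.4. Gene positions and classes came from GENCODE M21 on GRCm38, and start-site windows from RefSeq (GRCm38.p6).

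Counts were analysed in R 4.3.3 with edgeR 4.0.16 and limma 3.58.1. Genes low in all 8 groups were removed by filterByExpr, leaving 14321 genes. TMM factors, voom weights and limma's moderated test were applied to 56 mice together, and p-values were adjusted by Benjamini-Hochberg over all genes tested, with a threshold of 0.05. All adjusted p-values are from limma unless another tool is named. The pipeline was tested on simulated counts. Covariate fits used the mean log2 level of the 11 leukocyte markers or the log2 Gm42418 share, and thinned counts had 6639782 per mouse. Alternatives also included DESeq2 1.42.0, other scalings and filters, and leaving out each mouse.

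The text names the 10 largest called rises and falls with a mean of at least 10 counts, chosen anchor genes of each list, up to 4 further called members per list by lowest p, Elavl1, and up to 5 genes per difference from another line. Other names are marked as chosen after their values were seen. The members and lists were chosen with earlier results of these data known. P-values measure the spread between these mice, each sequenced once. A marker list is not reported here.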

Additional observations from a re-analysis of the deposited data

Results flagged for a closer look

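In 22 of 292 groups of 7 mice tested over the named genes, a single mouse stood apart from the other 6 by Dixon's test, which chance alone flags in about 1 of 20 groups. Running mouse 13 was the mouse apart for Atp5j2 (630.5 CPM), mt-Co1 (4547), Fkbp5 (14.0), Sod2 (126), Gm43185 (18.2) and Rora (249). Running mouse 5 was apart for Cox4i1 (619), Col3a1 (157), Tnmd (2.3), Acta1 (24826) and Wdtc1 (22.4), and locked mouse 20 for Gm8292 (4.45), Cox4i1 (598), Csnk1e (87.6), Trim63 (678), Cacna1s (273) and Rora (377). Single instances were Phkg1 in running mouse 25 (114), Hspa1b in running mouse 27 (67.1) and Ins1 in locked mouse 16 (0.221). Running mouse 28 had both insulin transcripts, Ins1 at 6.84 and Ins2 at 8.59 CPM, from 86 and 108 counts.

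For 64 of the 146 named genes the wheel effect differed between male and female control mice by limma's test of the difference, given here as male minus female on the log2 scale. Over all genes tested the share was 8.74%. Many of the named genes were picked by the male effect, a term of this difference, or by the difference itself, which raises their share. With the leukocyte covariate only 87 of all genes differed. Among genes of leukocytes, matrix, tendon and blood they were Itgam (1.95), Pi16 (0.97), Cd34 (0.74), Col1a1 (1.28), Col3a1 (1.26), Col4a1 (0.54), Fbn1 (1.16), Hbb-bs (1.40) and Tnmd (1.82). Among mitochondrial and fatty acid genes they were Pdhb (0.43), Atp5o (0.32), Sdhb (0.39), Uqcrc2 (0.30), Atp5j2 (0.50), mt-Co1 (0.32), mt-Nd4 (0.57), Slc25a11 (0.28), Acot13 (0.52), Phyh (0.41) and Prdx2 (0.36). Among ribosomal protein genes they were Rps15a (0.70), Rps25 (0.51), Rpl31 (0.64) and Rps12 (0.67). Among genes of the fast fibre and of excitation they were Myh4 (-0.50), Actn3 (-0.60), Atp2a1 (-0.63), Ckm (-0.49), Acta1 (-0.27), Ryr1 (-0.95), Cacna1s (-0.51), Scn4a (-0.79), Musk (-0.85) and Rapsn (-0.54). Among genes of glucose and glycogen handling they were Hk2 (-0.37), Pygm (-0.50), Phkg1 (-0.73), Gsk3b (-0.64) and Gsk3a (-0.54). Among clock and muscle regulators they were Hlf (-0.85), Csnk1e (-0.32), Rora (-0.49), Mstn (-0.59) and Mef2a (-0.38). Among noncoding genes they were Gm23935 (-2.04), Gm37014 (-2.40), Gm42790 (-2.10), Gm42432 (-2.14), Gm43185 (-2.32) and Gm43063 (-2.39). The remaining genes were Glb1 (1.68), Ephb3 (1.66), Gbp3 (1.41), Gm8292 (1.55), Senp3 (-1.23), Psmd2 (-0.60), Psmd4 (-0.46), Luc7l2 (-0.78), Inpp5k (-0.65), Eif4ebp2 (-0.99), Cuedc1 (-0.99), Snrnp70 (-0.73), Eif4b (-0.52) and Wdtc1 (-0.73). The wheel effect of 5 named genes differed between the control and knockout males: Senp3 (-1.61), Ins1 (-5.74), Cd59a (0.90), Slc25a11 (0.44) and Inpp5k (-0.60). They were the only genes of all tested that this test called (0.0349%), and the naming rule took them in for that. For Ins1 the value comes from the running knockout males, at 50 to 106 counts each against 0 to 1 in the locked ones.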

How the results depend on the processing

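No paired analysis was possible because the locked and running mice carry different mouse numbers. Fits with thinned counts or with the leukocyte or Gm42418 covariate were chosen after seeing the data. Of the 464 called genes' count, sample quality weights gave 1046 (516 rises and 530 falls), the leukocyte covariate 75 (40 and 35) and the Gm42418 covariate 38 (15 and 23), and leaving out 1 mouse gave 194 to 618 (84 to 304 rises, 110 to 314 falls). The lower counts were 217 without locked mouse 20, and 194, 297 and 296 without running mice 10, 13 and 25, and these fits had fewer samples. DESeq2 gave 673, the edgeR quasi-likelihood test 483 and no filter 431. A fit of only the 14 mice of this comparison gave 582 (229 rises and 353 falls among 12535 genes tested), of which 368 were among the 464. A fit of the 28 male mice gave 495 (191 and 304 among 13382 genes tested), of which 378 were among them. For the difference from females (1251) the adipocyte covariate gave 764 (353 and 411), the leukocyte covariate 87 (24 and 63) and the Gm42418 covariate 658 (258 and 400). For the difference from knockout males (5, split 2 and 3), DESeq2 gave 13 (7 and 6), quality weights 34 (12 and 22), a minimum of 10 counts 3 (2 and 1) and the adipocyte covariate 4 (1 and 3). It was 0 by the quasi-likelihood test, in a fit of the 4 groups alone, with thinned counts and with the Gm42418 covariate, where 1495, 1325, 1104 and 938 genes had an unadjusted p under 0.05.

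Of 84 named genes that passed, 41 passed under each of the 27 settings other than thinning and these 2 covariates that tested them. A setting that gave no result for a gene was not counted against it, as for Glb1. With the leukocyte covariate 31 passed, and with the Gm42418 covariate 15. The 13 under both were Gm42790, Ldhb, Phkg1, Uqcrc2, Hlf, Mb, Gm42432, Cuedc1, Snrnp70, Acot13, Phyh, Eif4b and Wdtc1. Among the genes that passed, only Gm23935 changed sign in any alternative. Some passed in few of the 14 fits that left out 1 mouse. Inpp5k passed in 2, and Casq2, Tpm1, Zfp689, Ephb3, Gbp9, Lrrc27 and Rpa3 in 3 each. Esrrg, Kdr, Hsp90aa1, Adam9 and Gm37014 passed in 4 each, Psmd6 and Gm23935 in 5 each, and Idh2, Gsk3a and Aldh1a2 in 6 each. With the Gm42418 covariate log2 values changed sign for Gm23935 (0.104), Hk2 (-0.063), Pdk4 (0.155), Cox4i1 (0.0435), Esrra (0.0599), Vegfa (0.0974), Pax7 (-0.162), Odc1 (-0.0949) and Elavl1 (0.0269). With the leukocyte covariate they did so for Pdk4 (0.0989), Vegfa (0.0111) and Ptprc (-0.424). Ptprc is itself a marker in that covariate, so its change of sign is in part built in. Vegfa also turned with upper-quartile scaling (0.00401), limma-trend (0.00049), no filter (0.00051) and the adipocyte (0.00142) and liver (0.00098) covariates. Trim63 and Cat turned by the quasi-likelihood test (-0.0153 and -0.0212) and DESeq2 (-0.0252 and -0.0312), and Trim63 with quality weights (-0.0106). Odc1 turned with the adipocyte covariate (-0.0262) and thinned counts (-0.00515), and Alb with the liver covariate (0.295), of which it is likewise a member. Leaving out single mice turned Tnnt1 (-0.0179 to 0.137), Hk2 (-0.0171 to 0.0881), Vegfa (-0.0494 to 0.0374), Trim63 (-0.0816 to 0.161), Pax7 (-0.0422 to 0.16), Odc1 (-0.0072 to 0.161), Cat (-0.0691 to 0.112), Alb (-0.808 to 0.279) and Ins1 (-0.216 to 1.01). The causes were not tested. At these depths genes near 10 counts, such as Zfp689, are the least certain.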
